A study of Mus musculus with 51 samples.

Results

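Midbrain dopaminergic (mDA) neurons of mice with a mutation of Eed were compared with wt neurons at 2 ages, and the question here was how the effect of the genotype differed between 4 and 8 months. All 35 mDA libraries of the 51 in the series entered 1 fit. The 4 groups were wt at 4 months (9 libraries, 4 of them from females), mutant at 4 months (10 libraries, 6 female), wt at 8 months (8 libraries, 3 female) and mutant at 8 months (8 libraries, 4 female). All animals were of the DatCreEed strain, in which the driver of Cre is the gene of the dopamine transporter (Dat, Slc6a3), a gene of dopaminergic neurons. Neurons were sorted by fluorescence from adult midbrain, each library came from 1 numbered animal, and libraries were made by Smart-seq2, which reads full-length transcripts from little RNA. The labels call the groups wt and mut and do not give the allele of Eed or the Cre status of wt animals. The quantity reported as the difference is the log2 fold change of mutant over wt at 8 months minus that at 4 months, with sequencing set within month and sex as terms. Levels are in CPM, counts scaled to the size of the library.

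Polycomb repressive complex 2 (PRC2) methylates lysine 27 of histone H3, and EED is the subunit that reads this mark and keeps the enzyme active. In neurons PRC2 is best known for keeping genes of other lineages silent, above all transcription factors of embryonic patterning such as those of the HOX clusters. Dopaminergic neurons of the midbrain are defined by tyrosine hydroxylase (Th), which makes the dopamine precursor, by the vesicular transporter Slc18a2, which loads dopamine into vesicles, and by Slc6a3, which takes it back up at the membrane. Their identity is held by factors such as EN1, NR4A2 and PITX3.

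The groups were not evenly composed, and some libraries stood apart. In set 1 at 4 months all 4 mutants were female and all 3 wt animals male. A fit of set 1 alone thus takes its sex term from the 8-month libraries. In set 3 at 4 months the 2 mutants were male and the 2 wt animals female. Set 3 at 8 months held 2 wt libraries, both female, and 0 mutants, and these inform only the spread. A length index was computed for each library from genes with a mean log2 CPM above 4. Each gene entered as its deviation from its own mean over the 35 libraries, on the log2 scale. The index is the mean deviation in the group of longest transcripts minus that in the shortest, of 4 equal groups by length. It ran from 0.28 to 0.64 in the 6 female mutants of 4 months and from -0.67 to -0.03 in the 4 male mutants of that age. In the other groups it ran from -0.48 to 0.13 (wt at 4 months), -0.24 to 0.46 (wt at 8 months) and -0.24 to 0.1 (mutants at 8 months). The 6 female mutants of 4 months held 1654667 to 3017630 counts, against 4094640 to 4587312 in the male mutants of 4 months, and 0 to 13 counts of the mCherry reporter against 38 to 73. Over the 35 libraries, totals ran from 1644460 to 12250492. Because of this, values without the 4 set 1 mutants of 4 months or without all 6 female mutants are given below where the call or the size changed. Over the table, the median effect of the group of shortest genes (median transcript 1626 bases) was -0.12 at 4 months and 0.10 at 8 months, and that of the longest group (6440 bases) 0.07 and -0.05.

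**Figure D1:**
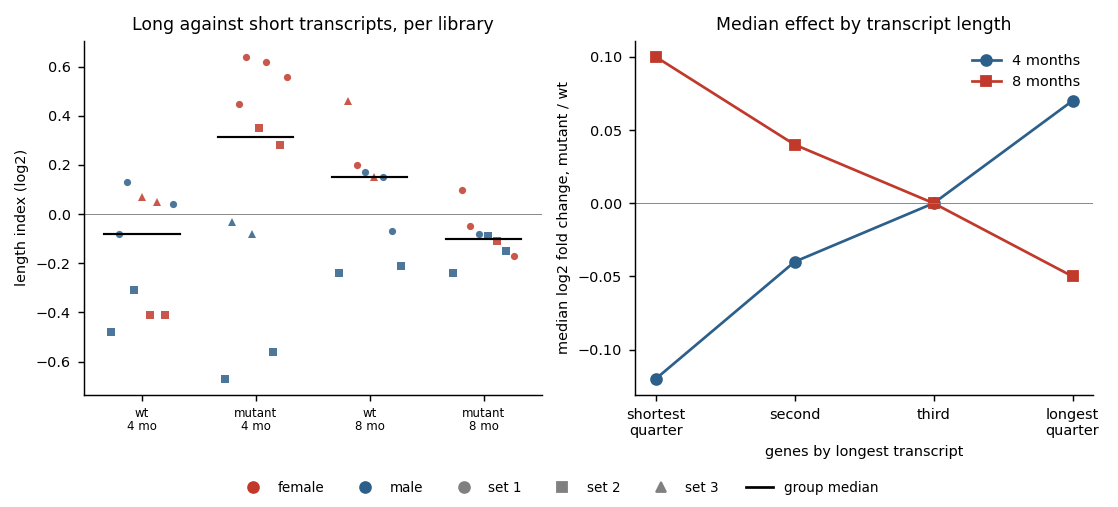
Left, length index of each of the 35 mDA libraries (log2, y axis) by group, with sex as colour, sequencing set as symbol and the group median as a bar. The 6 female mutants of 4 months sit between 0.28 and 0.64. Right, median log2 fold change of mutant over wt (y axis) in 4 equal groups of the tested genes ordered by their longest transcript (x axis): at 4 months it runs from -0.12 to 0.07 and at 8 months from 0.10 to -0.05.

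The Eed row could not be used to check the labels, since counts over the whole gene do not isolate a deleted stretch. Its level was 6.85 to 24.9 CPM in wt at 4 months (median 15.0), 14.8 to 39.8 in mutants at 4 months (19.5), 8.38 to 17.2 in wt at 8 months (14.2) and 8.90 to 36.2 in mutants at 8 months (21.6). The groups overlapped at both ages, and the difference between ages was -0.14 (SE 0.36, edgeR adjusted p 0.872). The cell type matched its label: Th, Slc6a3 and Slc18a2 were at 595 CPM or more in every library. For other cell types, the summed level of 15 astrocyte markers was 380 to 787 CPM in the groups other than mutants at 8 months and 547 to 2782 there, with D176 (2782), D161 (1323) and D170 (1280) the highest. Marker sums of oligodendrocytes and their precursors (17 genes) ran from 472 to 1686 CPM over all groups. Fewer cells of a type and less RNA per cell cannot be told apart in such bulk samples.

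Slc18a2, Slc6a3, Th and the transcription factor gene En1 were called lower in mutants at 8 months and were not called at 4 months, while Pax6, the glycine transporter gene Slc6a5, the vesicular GABA and glycine transporter gene Slc32a1 and Hoxd11 were called higher at 8 months and not called at 4. These 8 genes passed the test of the difference between ages in the full fit, without the sex term and without the 4 set 1 mutants of 4 months. Across the table of 15425 genes, 6.11% passed it (edgeR quasi-likelihood test, Benjamini-Hochberg adjusted p under 0.05): the effect was higher at 8 months for 580 genes (3.76%) and lower for 362 (2.35%), a share of 61.6% higher. With RLE scaling 930 genes passed and 51.7% of them were higher. At 4 months 89 genes were higher in mutants (0.577%) and 92 lower (0.596%), and at 8 months 376 were higher (2.44%) and 290 lower (1.88%). The total of 580 and 362 genes with a called difference rested on the libraries described above. Without the sex term it was 154, without the 4 set 1 mutants of 4 months 89, and without all 6 female mutants of that age 17. Of these genes, 940 could be tested without the 4 set 1 mutants and all of these kept the sign of their difference, and 86 were still called. Both without those mutants and, separately, without the sex term, 69 genes were called with the same sign, 30 higher and 39 lower.

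**Figure D2:**
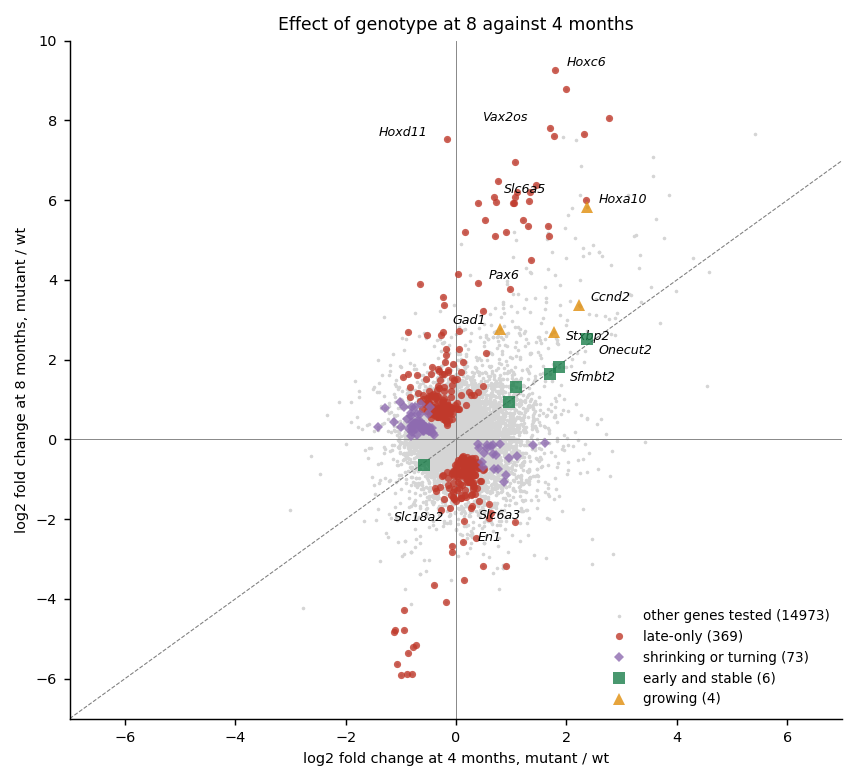
Log2 fold change of mutant over wt at 8 months (y axis) against 4 months (x axis) for the 15425 genes tested in mDA neurons. Colours mark the 6 early and stable, 4 growing, 73 shrinking or turning and the late-only genes, the dashed line marks equal effects, and late-only genes lie along the vertical axis.

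Genes were sorted by their 3 calls. Late-only genes (called at 8 months and in the difference, in the same direction, and not at 4 months) made up 2.39% of the genes tested, with 1.24% higher and 1.15% (177 genes) lower. Early and stable genes (called at both ages in 1 direction, difference not called and its 95% interval within 1 log2 unit of 0) numbered 6. Growing genes (called at both ages, with a larger effect at 8 months) numbered 4. In 73 genes called at 4 months the difference was called in the other direction, 53 of them lower first and 20 higher first. The fitted effects had opposite signs at the 2 ages in all 73, and 10 genes were called at both ages in opposite directions. A further 98 genes were called at 4 months with a difference that was not called but too wide for the stable class, 1.56% of the tested genes were called at 8 months without a called difference, and 496 were called in the difference alone. Among late-only genes that rose, 144 had fitted effects of opposite signs at the 2 ages and 48 had the same sign. Among those that fell, 135 had opposite signs and 42 the same. In 20 of the rising genes the 4-month effect was above 1 log2 unit. Not being called at 4 months does not place the effect there at 0, and the intervals of low genes were wide.

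The vesicular transporter Slc18a2 had the smallest p-value among genes whose effect was lower at 8 months. Its level was 1566 to 2561 CPM in wt (median 2227) against 1159 to 2196 in mutants (1996) at 4 months, and 1730 to 2817 in wt (2127) against 643 to 853 in mutants (713) at 8 months. At 8 months every mutant lay below every wt library, and at 4 months the groups overlapped, though within each of the 3 sets every mutant lay below every wt library: 1159 to 1534 beside 1566 to 1771 in set 1, 1990 to 2079 beside 2182 to 2319 in set 2, and 2113 to 2196 beside 2450 to 2561 in set 3. The fitted effect was -0.22 (SE 0.08, adjusted p 0.18) at 4 months and -1.49 (SE 0.10, adjusted p 8.64e-15) at 8 months, a difference of -1.28 (SE 0.13, adjusted p 1.04e-08). Without the 6 female mutants of 4 months the difference was -1.34 and still called, and in set 2 alone it was -1.44 and 1 of only 3 calls.

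The dopamine transporter gene Slc6a3, whose promoter drives Cre in this strain, went the same way. Its level was 1392 to 3602 CPM in wt (2851) against 1247 to 3602 in mutants (2583) at 4 months, and 1923 to 3242 in wt (2925) against 879 to 1533 in mutants (1054) at 8 months. The groups coincided over most of their range at 4 months and did not overlap at 8 months. The effect was 0.16 (SE 0.11, adjusted p 0.555) at 4 months and -1.40 (SE 0.14, adjusted p 8.50e-10) at 8 months, a difference of -1.56 (SE 0.18, adjusted p 1.37e-07). Th, the rate-limiting enzyme of dopamine synthesis, was at 1433 to 2649 CPM in wt (1791) against 1056 to 3036 in mutants (1616) at 4 months, and at 1004 to 2147 in wt (1718) against 595 to 875 in mutants (716) at 8 months. The 8-month groups again did not overlap, and the difference was -1.10 (SE 0.16, adjusted p 2.31e-05). Both genes were still called without the 6 female mutants, with differences of -1.48 for Slc6a3 and -1.25 for Th.

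Ddc, which encodes the decarboxylase that completes dopamine synthesis, did not pass: its effects were 0.05 at 4 months and -0.37 at 8 months, with a difference of -0.42 (SE 0.17, adjusted p 0.135). Of the 17 tested genes of dopamine synthesis and handling, 0 were higher and 1 lower at 4 months, and 0 were higher and 7 lower at 8 months. Over all genes, 0.596% were called lower at 4 months and 1.88% at 8 months. In the difference 1 of the 17 was higher and 3 lower (23.5%, beside 6.11% of all genes), with a median of -0.15 beside 0.02 over all genes. The 3 were Slc18a2, Slc6a3 and Th. Drd2, Slc10a4, Aldh1a1 and Sv2c were called lower at 8 months without a called difference.

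Among dopaminergic transcription factors, all 14 tested had a negative difference, with a median of -0.78. Of these, 5 passed (35.7%, beside 6.11% of all genes), among them En1, Nr4a2, Pbx3 and Ebf3. En1, which maintains adult dopaminergic neurons, was at 85.9 to 143 CPM in wt (99.3) against 76.0 to 129 in mutants (114) at 4 months, and at 88.1 to 158 in wt (116) against 31.3 to 55.4 in mutants (38.0) at 8 months. The 4-month effect was 0.00 (SE 0.13, adjusted p 0.997), and the 8-month groups did not overlap. The difference was -1.54 (SE 0.20, adjusted p 2.90e-06), and -1.57 and still called without the 6 female mutants. Nr4a2, which activates Th and Slc6a3, had a difference of -0.71 (SE 0.19, adjusted p 0.0179) that was -0.37 and not called without the 4 set 1 mutants. Pitx3 fell at 8 months (-1.56, SE 0.35, adjusted p 0.00371), but its difference of -1.37 (SE 0.45, adjusted p 0.0563) did not pass. Without the 4 set 1 mutants the list's median difference was -0.77 and En1 alone of the 5 was called.

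Markers of substantia nigra type neurons, the dopaminergic subtype most affected in Parkinson's disease, had a median difference of -1.11 over 12 genes. Of these, 5 were called lower and 0 higher (41.7%, beside 6.11% of all genes). Anxa1 had a difference of -2.84 (SE 0.61, adjusted p 0.00542), Ndnf one of -1.65 (SE 0.33, adjusted p 0.00253) and the potassium channel gene Kcnj6 one of -1.04 (SE 0.25, adjusted p 0.0104). The other 2, Kcns3 and Satb1, were higher first and are described below. Of 16 markers of ventral tegmental type neurons, 2 were called higher, Calb2 and Slc17a6, and 0 lower (12.5%), with a median of 0.44. That median was 0.12 without the 4 set 1 mutants of 4 months, 0.02 in set 2 alone and 1.04 in set 1 alone. The nigral median was -1.01, -0.53 and -1.48 in the same fits, in that order. Calb2, a calcium buffer, had a difference of 1.70 (SE 0.35, adjusted p 0.00402). Without the 4 set 1 mutants, Kcns3 and Satb1 were the nigral markers still called and 0 ventral tegmental markers were; Anxa1 was at -3.12 (adjusted p 0.0591), Ndnf at -1.46 and Kcnj6 at -1.01 there. Without all 6 female mutants Anxa1 was at -4.27 and called, Ndnf at -1.78, Kcnj6 at -0.31 and Calb2 at 0.51, not called.

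Outside these lists, the genes with the smallest p-values for a lower effect at 8 months included Arhgap6, which encodes a GTPase-activating protein, Lix1, the neural POU factor gene Pou3f2 and the synaptic scaffold gene Grip2. Lix1 was at 49.9 to 136 CPM in wt (106) against 61.3 to 185 in mutants (77.2) at 4 months, and at 68.2 to 132 in wt (94.9) against 28.6 to 43.9 in mutants (31.2) at 8 months. Arhgap6 was at 49.9 to 96.8 CPM in wt (80.3) against 65.1 to 141 in mutants (89.6) at 4 months, and at 66.1 to 112 in wt (88.5) against 15.8 to 37.3 in mutants (29.8) at 8 months. In both genes the 8-month groups did not overlap. The differences were -1.63 (SE 0.22) for Lix1, -1.95 (SE 0.22) for Arhgap6, -1.56 (SE 0.21) for Pou3f2, -1.38 (SE 0.19) for Grip2, -1.66 (SE 0.21) for Fam184a and -1.70 (SE 0.25) for Nwd2. All 6 were called without the 4 set 1 mutants and without the sex term, and Lix1 and Arhgap6 also without the 6 female mutants, where Fam184a was at -0.83, Grip2 at -0.73, Nwd2 at -0.98 and Pou3f2 at -1.14. Oprk1, the kappa opioid receptor gene, had a difference of -1.19 (SE 0.22, adjusted p 0.000833), still called without the 4 set 1 mutants and at -0.87 and not called without the 6 female mutants.

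The transmitter genes of both directions are shown by the 250 bases before their listed start (RefSeq, GRCm38.p6, on the strand of the gene), since the pairs of letters CG that make up CpG islands mark the promoters PRC2 can act on; capitals mark each CG pair. Slc18a2 lies at chr19:59260628-59260877, Slc6a3 at chr13:73536497-73536746 and Th at chr7:142899996-142900245 (minus strand). Gad1 lies at chr2:70561879-70562128, Slc32a1 at chr2:158610508-158610757 and Slc6a5 at chr7:49910049-49910298, the first of its 2 listed starts.
Slc18a2: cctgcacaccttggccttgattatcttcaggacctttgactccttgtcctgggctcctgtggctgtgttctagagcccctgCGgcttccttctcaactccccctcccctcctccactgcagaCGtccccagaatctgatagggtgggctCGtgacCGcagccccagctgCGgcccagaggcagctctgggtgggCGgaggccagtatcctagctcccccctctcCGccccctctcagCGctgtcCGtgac
Slc6a3: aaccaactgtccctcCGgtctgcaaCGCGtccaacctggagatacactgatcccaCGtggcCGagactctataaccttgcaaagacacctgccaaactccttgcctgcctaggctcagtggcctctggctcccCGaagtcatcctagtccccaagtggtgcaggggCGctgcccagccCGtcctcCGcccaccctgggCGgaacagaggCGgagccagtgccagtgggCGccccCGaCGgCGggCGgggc
Th: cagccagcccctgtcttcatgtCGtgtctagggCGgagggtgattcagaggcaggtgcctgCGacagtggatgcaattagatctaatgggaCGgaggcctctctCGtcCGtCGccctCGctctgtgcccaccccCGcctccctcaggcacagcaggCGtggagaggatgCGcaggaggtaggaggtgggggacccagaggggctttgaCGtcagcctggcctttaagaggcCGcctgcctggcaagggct
Gad1: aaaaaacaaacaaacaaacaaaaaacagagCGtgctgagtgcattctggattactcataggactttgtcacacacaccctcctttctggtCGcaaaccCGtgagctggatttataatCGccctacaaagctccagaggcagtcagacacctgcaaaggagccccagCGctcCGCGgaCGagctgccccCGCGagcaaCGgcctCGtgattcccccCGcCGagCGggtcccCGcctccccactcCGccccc
Slc32a1: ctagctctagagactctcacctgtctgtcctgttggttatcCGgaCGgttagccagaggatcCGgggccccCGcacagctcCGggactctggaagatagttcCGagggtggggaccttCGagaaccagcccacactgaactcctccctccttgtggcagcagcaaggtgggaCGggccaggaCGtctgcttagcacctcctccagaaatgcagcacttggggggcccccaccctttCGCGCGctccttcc
Slc6a5: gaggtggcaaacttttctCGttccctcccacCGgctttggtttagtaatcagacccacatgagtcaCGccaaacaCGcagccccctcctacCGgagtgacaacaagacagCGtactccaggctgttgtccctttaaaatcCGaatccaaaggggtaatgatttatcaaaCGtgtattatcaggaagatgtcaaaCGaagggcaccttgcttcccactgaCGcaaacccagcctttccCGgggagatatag
The 3 falling genes held 9 (Slc18a2), 16 (Slc6a3) and 13 (Th) CG pairs, and the 3 rising genes 17 (Gad1), 12 (Slc32a1) and 11 (Slc6a5). The median over the 32851 promoters of the table was 6, and at least as many pairs as in these genes were held by 40.3%, 25.4%, 31.5%, 23.5%, 33.5% and 35.6% of them, in the order printed. The counts of the 2 directions overlapped. Promoters were matched for 77.8% of the tested genes, under the 80% set as a minimum, so the classes were not compared by CG pairs.

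Of the 6 tested GABA and glycine neuron genes, 4 had a called difference (66.7%, beside 6.11% of all genes), 3 of them late-only and 1, Gad1, called higher at both ages. All 6 differences were positive, with a median of 1.54. Slc6a5, the glycine transporter of glycinergic nerve endings, was at 0.218 to 5.52 CPM in wt (0.865) against 0.00 to 5.75 in mutants (2.10) at 4 months, and at 0.00 to 3.50 in wt (0.850) against 44.4 to 143 in mutants (85.7) at 8 months. Every 8-month mutant lay above every other library. The effect was 0.68 (SE 0.44, adjusted p 0.507) at 4 months and 6.09 (SE 0.48, adjusted p 1.62e-12) at 8 months, a difference of 5.41 (SE 0.62, adjusted p 1.97e-07). Without the 6 female mutants it was 4.84 and still called.

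Slc32a1, which loads GABA and glycine into vesicles, was at 11.3 to 37.8 CPM in wt (20.6) against 8.37 to 33.7 in mutants (22.9) at 4 months, and at 11.7 to 27.0 in wt (17.1) against 43.2 to 79.0 in mutants (61.5) at 8 months. The 4-month groups overlapped over nearly all of their range and the 8-month groups not at all. The difference was 1.95 (SE 0.30, adjusted p 4.88e-05), 1.63 and still called without the 4 set 1 mutants, and 1.39 and not called without the 6 female mutants. Gad2, the second GABA-making enzyme, was late-only too, with effects of -0.41 and 0.72 and a difference of 1.13 (SE 0.24, adjusted p 0.00396), which was 0.81 and not called without the 4 set 1 mutants. Of the 4 genes, Slc6a5 alone was called without the 6 female mutants.

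Pax6, a homeobox factor of eye, forebrain and progenitor cells, was at 0.845 to 22.5 CPM in wt (9.68) against 5.43 to 21.3 in mutants (14.8) at 4 months, and at 3.16 to 14.3 in wt (5.75) against 54.9 to 113 in mutants (81.2) at 8 months. The 8-month groups did not overlap. Its difference was 3.52 (SE 0.39, adjusted p 1.31e-07), 3.55 without the 6 female mutants and 3.61 in set 2 alone, called in both. Astrocytes also express Pax6, and the astrocyte marker sum was above its highest value in the other groups in 4 of the 8-month mutants; its part in the Pax6 level was not tested. Wnt5a, a secreted WNT ligand with a role in dopaminergic development, was at 31.3 to 68.2 CPM in wt (58.2) against 28.8 to 80.1 in mutants (44.2) at 4 months, and at 20.2 to 55.0 in wt (43.8) against 92.1 to 155 in mutants (125) at 8 months. Its difference was 1.83 (SE 0.25, adjusted p 9.87e-06), 1.72 and called without the 4 set 1 mutants, and 1.37 and not called without the 6 female mutants (adjusted p 0.139). It was the 1 gene of 24 tested WNT, BMP and hedgehog ligands with a called difference (4.17%, beside 6.11% of all genes).

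All 22 tested HOX genes were called higher at 8 months, with effects from 3.44 to 9.27, and 3 of them at 4 months (Hoxa7, Hoxa10 and Hoxc8). Over all genes tested, 2.44% were called higher at 8 months and 0.577% at 4 months. The 17 other HOX genes of the table did not pass the filter on low counts and are not included, and a HOX gene that passed through the 8-month mutants alone had to differ there. Summed over the 39 HOX genes of the table, the level was 5.28 to 14.8 CPM in wt (9.59) against 11.7 to 78.7 in mutants (27.8) at 4 months, and 5.72 to 52.3 in wt (12.1) against 239 to 770 in mutants (466) at 8 months. The 4 set 1 mutants held the highest 4-month sums, 34.1 to 78.7 CPM, and the other mutants of that age were at 11.7 to 31.5. In 20 of the 22 genes every 8-month mutant lay above every wt library of that age, and in 0 of the 22 at 4 months. The share of all tested genes without such overlap is not given here, so these 2 counts stand without a baseline. At 4 months 21 of the 22 effects were positive, with a median of 1.47, beside 5.95 at 8 months and -0.01 and 0.02 over all genes. The difference passed for 14 genes (63.6%, beside 6.11% of all genes), 13 of them late-only and 1 growing, with a median of 4.76 over the 22. Without the 4 set 1 mutants the median was 5.21 and 5 genes were called.

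Hoxd11, a gene of posterior body patterning, had 8 counts over the 9 wt and 5 over the 10 mutant libraries at 4 months, and 6 over the 8 wt and 2163 over the 8 mutant libraries at 8 months. Its level was 0.00 to 0.654 CPM in wt against 0.00 to 0.523 in mutants at 4 months, and 0.00 to 0.209 in wt against 21.7 to 52.9 in mutants (36.7) at 8 months. It thus stayed near the limit of detection in mutants at 4 months. The difference was 7.68 (SE 1.10, adjusted p 1.82e-05) and 7.99, still called, without the 6 female mutants. Hoxd4 and Hoxc6 were called without the 4 set 1 mutants as well, with differences of 5.10 (SE 0.96) and 7.47 (SE 1.44) in the full fit, and neither without the 6 female mutants, at 5.07 and 7.82. The fitted folds of these genes depend on a few wt counts. Hoxa9 was called at 8 months (3.44, SE 0.84), but its difference of 1.81 (SE 1.21, adjusted p 0.41) was not. That difference was -1.40 in set 1 alone, where genotype and sex coincided at 4 months.

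Vax2os, a transcript named for its place opposite the homeobox gene Vax2, was at 0.00 to 0.884 CPM in wt (0.288) against 0.00 to 4.02 in mutants (0.966) at 4 months, and at 0.00 to 4.16 in wt (0.997) against 72.7 to 360 in mutants (166) at 8 months. Its difference was 6.09 (SE 0.90, adjusted p 2.85e-05), and 5.24 and still called without the 6 female mutants. Use of strand in the counting is not given, so reads of Vax2os and Vax2 may not be fully separated. Of 219 other developmental transcription factors, 128 passed the filter on low counts, and one that passed through the mutants alone had to be higher there. Of the 128, 18 were called higher at 4 months and 67 at 8 months (beside 0.577% and 2.44% of all genes), against 0 and 1 called lower. Their median effect was 1.01 at 4 months, with 106 of 128 positive, and 2.62 at 8 months. The difference passed for 12 higher and 2 lower genes, 10.9% of the list beside 6.11% of all genes, with a median of 1.52. Among the 12, Tbx3, a T-box repressor, had a difference of 3.42 (SE 0.72, adjusted p 0.0037), and Dlx5, a homeobox factor of GABAergic forebrain neurons, one of 4.93 (SE 1.10, adjusted p 0.00563). Neither was called without the 4 set 1 mutants, at 2.89 and 4.83, or without the 6 female mutants.

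Other late-only genes that rose and were still called without the 4 set 1 mutants included Chga, Bcl2l1 and Pcgf1. Chga, which encodes the chromogranin A of dense-core vesicles, was at 116 to 215 CPM in wt (168) against 92.1 CPM or more in mutants (116) at 4 months, and at 57.6 to 167 in wt (134) against 234 to 387 in mutants (291) at 8 months. Its difference was 1.42 (SE 0.21, adjusted p 4.07e-05). Bcl2l1, the BCL2 family gene that encodes the survival protein BCL-XL, had a difference of 1.61 (SE 0.27, adjusted p 0.000233). It was the 1 called gene of 24 tested p53 response and cell death genes (4.17%, beside 6.11% of all genes). Pcgf1, a subunit of a variant Polycomb repressive complex 1, had a difference of 1.61 (SE 0.29, adjusted p 0.000633). Without the 6 female mutants the differences were 0.80 for Chga, 1.01 for Bcl2l1 and 1.30 for Pcgf1, and none of the 3 was called.

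**Figure D3:**
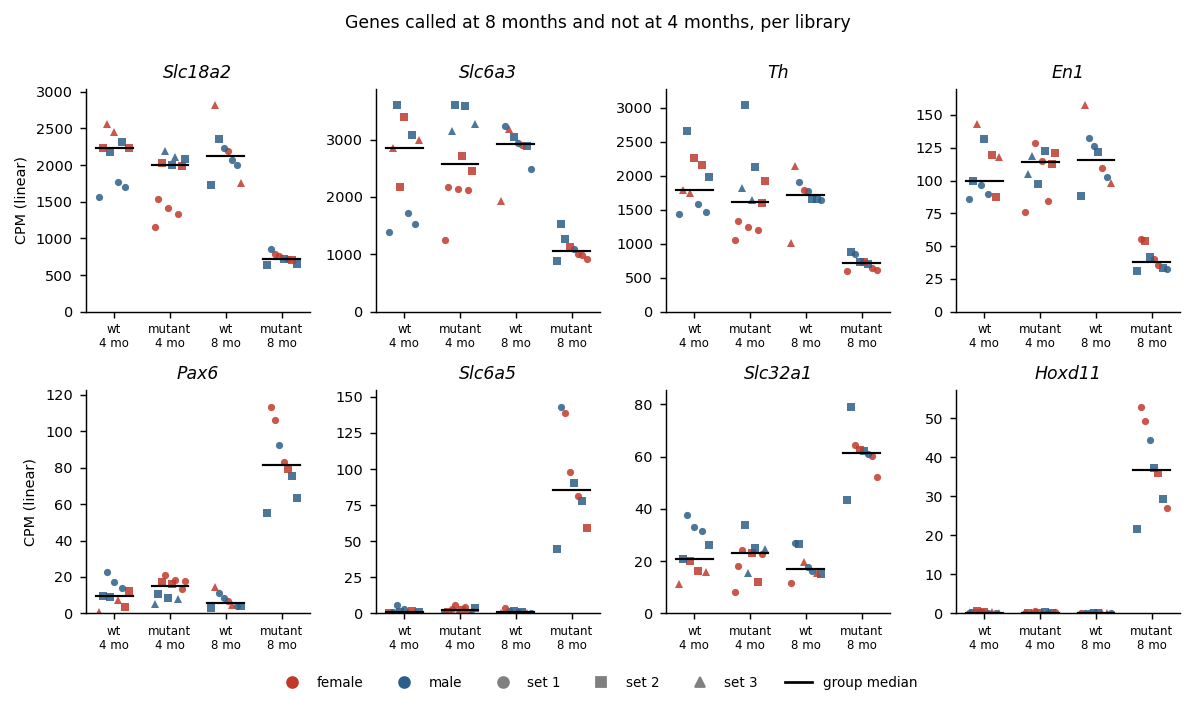
Level in CPM (y axis, linear, from 0) of 8 late-only genes in each of the 35 libraries by group, with sex as colour, sequencing set as symbol and the group median as a bar. Slc18a2, Slc6a3, Th and En1 in the upper row are low in the 8 mutants of 8 months, and Pax6, Slc6a5, Slc32a1 and Hoxd11 in the lower row are high there, without overlap with wt of that age.

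A small set of genes was called at both ages with a similar effect, and 0 genes met this rule without the 6 female mutants of 4 months. The early and stable genes included Onecut2, Sfmbt2, Kcp and Nr4a1, all higher in mutants, and Fdps, which was lower. Onecut2, a cut-homeobox factor of developing neurons, was at 5.41 to 35.3 CPM in wt (13.8) against 24.8 to 153 in mutants (85.8) at 4 months, and at no more than 33.3 in wt (22.2) against 86.9 to 172 in mutants (133) at 8 months. The effects were 2.38 (SE 0.21, adjusted p 1.15e-10) and 2.52 (SE 0.25, adjusted p 7.37e-10), and the difference was 0.14 with a 95% interval from -0.47 to 0.75. Sfmbt2, a Polycomb group gene, was at no more than 29.4 CPM in wt (16.8) against 27.2 to 134 in mutants (68.5) at 4 months, and at 6.08 to 33.8 in wt (24.6) against 60.4 to 88.5 in mutants (82.8) at 8 months, with effects of 1.87 and 1.82 and a difference of -0.05 (interval -0.71 to 0.61). Omitting the 6 female mutants gave 4-month effects of 2.06 for Onecut2 and 1.72 for Sfmbt2. Both genes overlapped between the groups at 4 months and not at 8 months.

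Of the 22 subunits of Polycomb repressive complex 1 tested, 3 were higher at 4 months and 3 at 8 months, and 0 were lower at either age. Over all genes, 0.577% were called higher at 4 months and 2.44% at 8 months. Kcp, a secreted modulator of BMP signals, had effects of 1.70 (SE 0.25) and 1.64 (SE 0.30), and the immediate early gene Nr4a1 effects of 1.09 (SE 0.25) and 1.31 (SE 0.30). Omitting the 6 female mutants gave a 4-month effect of 1.14 for Kcp and 0.39 for Nr4a1, and omitting the 4 set 1 mutants one of 0.75 for Nr4a1. Of 14 immediate early genes tested, 3 were called higher at 4 months and 5 at 8 months, beside the 2 shares of all genes given above. In the difference 0 of them passed, beside 6.11% of all genes. Fdps, of the mevalonate pathway, had effects of -0.58 (SE 0.14, adjusted p 0.0333) and -0.65 (SE 0.17, adjusted p 0.0219), and its 4-month effect was 0.01 and not called without the 6 female mutants. The class is small because its interval must lie within 1 log2 unit of 0; 46 genes in all were called at both ages with the same sign.

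Shox2, a homeobox gene that was the early gene with the smallest 4-month p-value, stood just outside that class. Its level was 0.854 to 7.21 CPM in wt (2.62) against 20.7 to 51.8 in mutants (37.2) at 4 months, and 1.19 to 9.58 in wt (7.34) against 37.1 to 70.5 in mutants (52.3) at 8 months. The groups did not overlap at either age. The effects were 3.69 (SE 0.27, adjusted p 4.64e-13) and 2.93 (SE 0.30, adjusted p 1.94e-09), with a difference of -0.76 (interval -1.50 to -0.01, adjusted p 0.231). That difference was -1.60 without the 4 set 1 mutants, -1.94 without the 6 female mutants and 0.44 in set 1 alone, not called in these 3 fits. In set 1 genotype and sex coincided at 4 months. Pitx1, a homeobox gene of hindlimb and pituitary, was at 0.00 to 0.854 CPM in wt (0.221) against 0.886 to 5.27 in mutants (3.69) at 4 months, and at 0.00 to 0.875 in wt (0.00) against 14.9 to 29.9 in mutants (20.7) at 8 months. Its difference of 2.26 (SE 0.99, adjusted p 0.174) did not pass, and was 2.18 without the 6 female mutants. Foxd3, a forkhead factor of the neural crest, had 2 wt counts at 4 months and a ratio of mutant over wt of 66.0 (95% counting interval 17.8 to 552), and 1 wt and 556 mutant counts at 8 months, a ratio of 402 (71.9 to 15906). Of the 89 genes called higher at 4 months, 64 had a positive effect at 8 months, with a median of 0.94 over the 89. Of the 92 called lower at 4 months, 28 had a negative effect at 8 months, and the median over the 92 was 0.22, on the other side of 0.

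The 4 growing genes were Gad1, Stxbp2, Hoxa10 and Ccnd2, all higher in mutants at both ages. Gad1, the main GABA-making enzyme, was at 22.5 to 64.6 CPM in wt (45.3) against 43.4 to 127 in mutants (76.0) at 4 months, and at 24.3 to 77.3 in wt (35.6) against 211 to 378 in mutants (278) at 8 months. The 8-month mutants lay above all other libraries. The effects were 0.79 (SE 0.18, adjusted p 0.0178) and 2.76 (SE 0.23, adjusted p 6.85e-12), and the difference 1.97 (SE 0.28, adjusted p 1.50e-05). At 4 months the sets differed: in set 1 the female mutants were at 43.4 to 70.4 CPM beside male wt of which the highest was at 64.6, and in set 2 all mutants were at 62.9 to 127 beside wt at 22.5 to 55.3. The 4-month effect was -0.34 in set 1 alone, where genotype and sex coincided at 4 months and the sex term came from the 8-month libraries. The difference was 1.25 and called without the 4 set 1 mutants, and 0.80 and not called without all 6 female mutants.

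Stxbp2, a syntaxin-binding protein of vesicle release outside the nervous system, was at 9.51 to 52.8 CPM in wt (42.6) against 75.8 to 153 in mutants (120) at 4 months, and at 20.6 to 44.6 in wt (32.7) against 135 or more in mutants (194) at 8 months. Its groups did not overlap at either age, and the effects were 1.77 (SE 0.16, adjusted p 1.30e-10) and 2.68 (SE 0.19, adjusted p 1.64e-13). Ccnd2, the cyclin D2 gene of the G1 phase, was at 3.70 to 10.9 CPM in wt (9.09) against 25.0 to 64.1 in mutants (41.4) at 4 months, and at 2.23 to 27.3 in wt (6.75) against 30.6 to 94.1 in mutants (72.0) at 8 months, again without overlap. The differences were 0.91 (SE 0.23, adjusted p 0.0146) for Stxbp2 and 1.13 (SE 0.36, adjusted p 0.0464) for Ccnd2. Without the 4 set 1 mutants they were 0.78 and 1.05 and not called, and the call of Ccnd2 held in 9 of the 35 fits that left out 1 library. Hoxa10 was at 0.00 to 0.884 CPM in wt (0.285) against 0.00 to 4.47 in mutants (1.96) at 4 months, and at 0.0833 to 2.38 in wt (0.421) against 14.1 to 32.8 in mutants (24.1) at 8 months, with a difference of 3.45 (SE 0.89, adjusted p 0.0149) that was also called without the 4 set 1 mutants and was 2.99 and not called without the 6 female mutants. Of 8 tested CDK inhibitor and D-type cyclin genes, Ccnd2 alone had a called difference (12.5%, beside 6.11% of all genes). Cdkn2b rose at 8 months (5.18, SE 1.03, adjusted p 0.000825) with a difference of 3.52 (SE 1.31, adjusted p 0.1). Cdkn2a did not pass the filter, with 5 wt and 11 mutant counts at 4 months and 6 and 168 at 8 months.

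**Figure D4:**
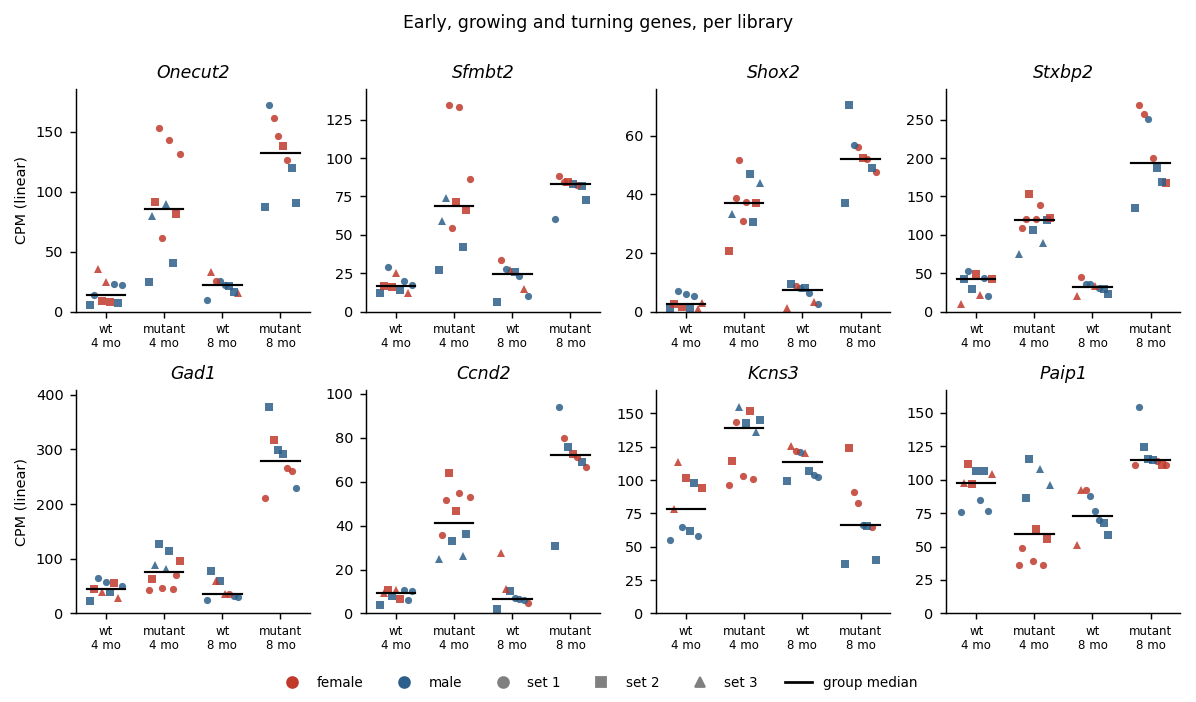
Level in CPM (y axis, linear, from 0) of 8 genes in each of the 35 libraries by group, drawn as in the plot of late-only genes. Onecut2, Sfmbt2 and Shox2 are higher in mutants at both ages, Stxbp2, Gad1 and Ccnd2 rise further at 8 months, Kcns3 is higher in mutants at 4 months and lower at 8 months, and Paip1 the reverse.

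Among the 10 genes called at both ages in opposite directions was Kcns3. This gene, a modulatory potassium channel subunit typical of nigral dopaminergic neurons, was at 55.0 to 113 CPM in wt (78.2) against 96.6 to 155 in mutants (139) at 4 months, and at 99.6 to 125 in wt (114) against 37.0 to 124 in mutants (66.2) at 8 months. Most mutants were thus above wt at 4 months and below wt at 8 months, with overlap at both ages. The effects were 0.69 (SE 0.14, adjusted p 0.0069) and -0.74 (SE 0.17, adjusted p 0.00621), and the difference was -1.43 (SE 0.22, adjusted p 5.37e-05), -1.88 and still called without the 6 female mutants. The chromatin organiser Satb1 (0.48, then -0.70) and the presynaptic scaffold gene Bsn (0.48, then -0.56) went the same way, and the differences of both were still called without the 4 set 1 mutants. Without all 6 female mutants their differences were -0.54 and -0.37, not called, and their 4-month effects -0.03 and -0.06.

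Paip1, which binds the poly(A)-binding protein, went the other way. It was at 75.5 to 111 CPM in wt (97.7) against 36.1 to 115 in mutants (59.6) at 4 months, and at 51.1 to 92.4 in wt (73.2) against 111 to 154 in mutants (115) at 8 months. The effects were -0.48 (SE 0.12, adjusted p 0.0343) and 0.82 (SE 0.15, adjusted p 0.000179), with a difference of 1.30 (SE 0.19, adjusted p 2.08e-05). Sec11a, a subunit of the signal peptidase (-0.75, then 0.81), Serinc3 (-0.50, then 0.63) and the tetraspanin gene Cd81 (-0.63, then 0.88) were lower first as well. The differences of Paip1, Sec11a and Serinc3 were still called without the 4 set 1 mutants, and that of Cd81 was not. Without all 6 female mutants none of the 4 was called, with differences of 0.84, 1.12, 0.45 and 0.42, and the 4-month effects were -0.09, -0.40, 0.05 and 0.23. Of the 73, 8 were called both without the 4 set 1 mutants and, separately, without the sex term. Without all 6 female mutants 1 of the 73 was called.

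Classes differed in transcript length, a property that the sorting did not use. The median longest transcript was 2506 bases in genes that were lower first and 5957 in those that were higher first, 2392 and 4852 in genes called in the difference alone (331 higher and 165 lower at 8 months), and 2892 and 4798 in late-only genes that rose and fell, beside 3442 over all genes. Among the 69 genes called in both alternatives it was 2792 in the 30 that were higher and 4279 in the 39 that were lower. Of the 496 genes called in the difference alone, 7 were called without the sex term, 6 without the 4 set 1 mutants and 3 with the length index as a term. Without all 6 female mutants of 4 months 1 was called. The part of transcript length in these calls was not tested beyond these fits. The class held the prohormone convertase gene Pcsk2 (-0.53 at 4 months, 0.47 at 8 months), the presynaptic scaffold gene Pclo (0.52, -0.52), Cox4i1 of complex IV (-0.62, 0.61) and the chaperone gene Hspa5 (-0.66, 0.85), none of them called at either age; without the 6 female mutants the 4-month effects were 0.06, -0.24, 0.48 and 0.63.

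Nuclear genes of oxidative phosphorylation numbered 72 tested, with a median transcript of 1186 bases. At 4 months 3 were called lower and 0 higher, with a median of -0.35 and 70 negative effects, and at 8 months 2 were called higher and 0 lower, with a median of 0.32 and 70 positive effects. The difference was positive in 69 and called in 27, or 37.5% beside 6.11% of all genes, with a median of 0.70. Without the 4 set 1 mutants the median was 0.40 and 0 were called. Atp5a1, of the ATP synthase, had a difference of 0.91 (SE 0.21, adjusted p 0.00803) that was 0.06 without the 6 female mutants, and that of Cox4i1 turned from 1.22 to -0.20. Of the genes of the unfolded protein response, 7 of 19 were called higher and 1 lower (42.1%), with a median of 0.78, and 0 were called without the 4 set 1 mutants. The difference of Hspa5 turned from 1.50 to -0.14 without the 6 female mutants. Cox4i1, Atp5a1 and Hspa5 were not called with the length index as a term.

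Markers of astrocytes and of oligodendrocytes and their precursors moved with age and genotype as well. All 15 astrocyte markers had a positive difference, with a median of 1.34, and 3 were called higher and 0 lower; Apoe had a difference of 2.09 (SE 0.42, adjusted p 0.00358) and Gja1, the astrocyte gap junction gene, one of 2.45 (SE 0.56, adjusted p 0.0069). Of 17 markers of oligodendrocytes and their precursors, 16 had a positive difference, and 5 were called higher and 0 lower (29.4%, beside the same 6.11%). Without the 4 set 1 mutants 0 genes of either list were called, while their medians were 1.70 and 0.89. Of 12 endothelial and mural markers 0 were called in the difference (1 at an unadjusted p under 0.05), with a median of 1.32 and a summed level of 10.3 to 1110 CPM in mutants at 8 months. The part of glial RNA in the changes of other short or glial transcripts was not tested.

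Several lists had 0 calls in the difference by edgeR: 11 PRC2 subunits (median -0.14, with 3 genes at an unadjusted p under 0.05, 1 called by DESeq2 and 2 by limma-voom), 13 genes of familial parkinsonism (0.10, with 4 unadjusted and 0 by either tool) and 10 GDNF and neurotrophin genes (0.55, with 4 unadjusted, 0 by DESeq2 and 2 by limma-voom). The same held for 21 neuropeptide precursors (0.66) and 10 microglia markers (0.48), each with 1 gene at an unadjusted p under 0.05 and 0 calls by either tool. Channel genes were mixed, with 0 higher and 4 lower of 38 potassium channel genes (10.5%, beside 6.11% of all genes) and 2 higher and 4 lower of 30 sodium, calcium and HCN channel genes, and 0 of the second group were called without the 4 set 1 mutants. Of 63 transmitter and peptide receptor genes 4 were higher and 3 lower (11.1%), and of 43 presynaptic genes 4 were higher and 6 lower (23.3%). In the fit without the 4 set 1 mutants 0 potassium channel, receptor or presynaptic genes were called higher, and 1, 2 and 1 lower.

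**Figure D5:**
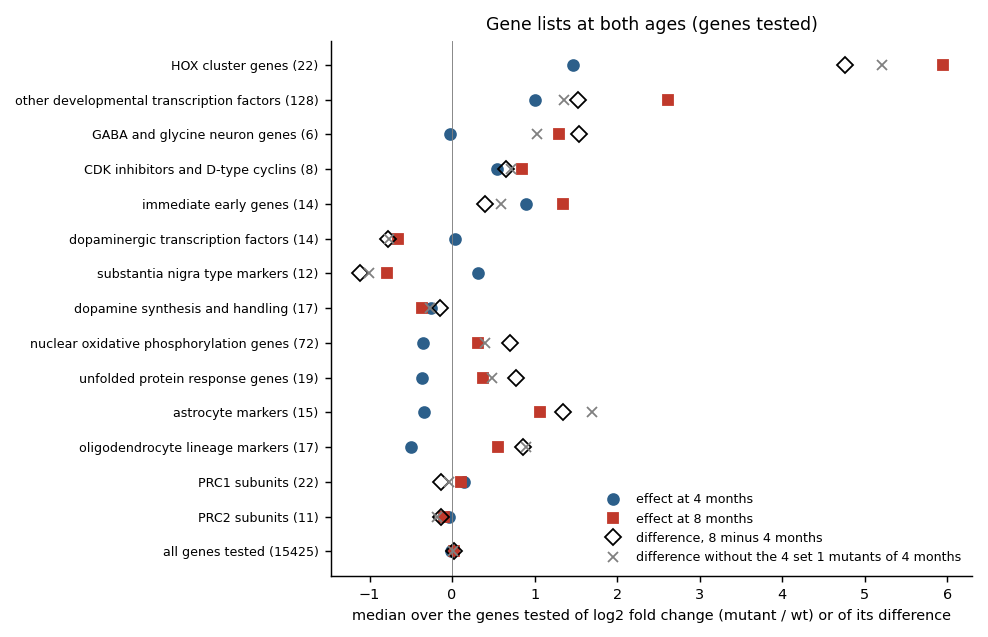
Median log2 fold change of mutant over wt at 4 months (circles) and 8 months (squares), the median difference (diamonds) and the median difference without the 4 set 1 mutants of 4 months (crosses), for 14 gene lists and all genes tested, with the number of genes tested in parentheses. HOX genes reach 5.95 at 8 months, substantia nigra type markers have a median difference of -1.11, and all genes lie near 0.

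Serotonergic (5HT) neurons of a second Cre line (16 libraries, 4 per group) gave a readout that the sorting did not use. In those cells 39 of 15633 genes were higher in mutants at 8 months (0.249%) and 23 lower (0.147%). Of the late-only genes that rose in mDA neurons, 190 were tested in 5HT neurons: 15 were called higher there at 8 months and 0 lower, 143 had a positive effect, and the median was -0.01 at 4 months and 0.24 at 8 months, beside 0.00 at both ages over all genes. Of the 177 that fell, 173 were tested, 3 were called lower and 0 higher, and the median at 8 months was -0.05. The 60 early genes with an unresolved difference that rose had 5HT medians of 0.55 and 1.92 at 4 and 8 months, with 12 of the 59 tested called higher at 8 months. The 73 turning and 496 difference-alone genes had 0 calls in 5HT neurons at 8 months and medians of 0.02 in both classes.

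Several of the genes described above showed the same direction in 5HT neurons at 8 months. Hoxd11 had an effect of 8.69 there (adjusted p 3.37e-05), Vax2os 8.19 (adjusted p 1.11e-09), Onecut2 3.58 (adjusted p 0.000266), Slc6a5 2.98 (adjusted p 0.0149), Slc32a1 2.15 (adjusted p 0.0128) and Pcgf1 1.71 (adjusted p 0.00321). Pax6 had an effect of 4.17 that did not pass (adjusted p 0.0686), and Gad1 one of 1.24 (adjusted p 0.219). Slc18a2, which 5HT neurons also use to load their transmitter, fell by 1.37 (adjusted p 0.00294). The difference between ages was called for 2 genes in 5HT neurons, both lower, and 620 genes had an unadjusted p under 0.05, with 4 libraries per group.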

How the data were processed

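RNA of sorted neurons was measured by Smart-seq2, per the labels' protocols. Their processed file is 1 table deposited as raw counts of reads, with 24564 genes and 1 column for each library; STAR 2.7.0a and mm10 (GRCm38) are named in the submitters' processing notes, while neither the counting tool nor its strand setting is named there. The 35 mDA columns were used in 1 fit and the 16 5HT columns in another, 0 columns were left unassigned and 0 pairs were identical. Group, month, set and sex came from the labels, and expression of sex-linked genes matched the label in 35 of 35 mDA libraries.

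The main test was edgeR 4.0.16 under R 4.3.3, with a robust quasi-likelihood fit, TMM scaling and filterByExpr on the 4 groups at a minimum count of 10. The contrast was mutant minus wt at 8 months minus the same at 4 months, with set within month and sex as terms; sex was added to the terms that the comparison called for, and the fit without it is given beside the counts. Calls used an adjusted p under 0.05 over all 15425 genes, SE was taken as the size of the log2 fold change over the square root of F, and 5HT libraries were fitted with sex as a term. The script was tested on simulated data. Alternatives used DESeq2 1.42.0 and limma 3.58.1, other terms, sets alone and libraries left out; the length term, sex within month and the omission of the 6 female mutants were chosen after seeing the data. Intervals from counts cover counting error only.

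Named genes were the 10 with the smallest p of the difference in each direction whose average log2 CPM was 0 or above, up to 6 per class and direction, up to 4 called members per list, and a fixed set of identity and Polycomb genes; gene models, Y-linked genes and Xist were left out. Drd2, Slc10a4, Aldh1a1, Sv2c, Hoxa7 and Hoxc8 were named after their values were seen, to complete counts. Not every gene so chosen is described, and a few are not reported here. The classes, lists and genes were chosen with earlier results of these data known. Gene lengths are the longest transcript of the reference, found for 94.6% of tested genes, and positions and promoters are those of RefSeq for GRCm38.p6.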

Additional observations from a re-analysis of the deposited data

Results flagged for a closer look

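Effects at 4 and 8 months differed by a test of the difference itself in 580 genes with a higher and 362 with a lower effect at 8 months, and 7 of the genes described were called in opposite directions at the 2 ages: Kcns3 (difference -1.43), Satb1 (-1.18) and Bsn (-1.04) were higher in mutants first, and Paip1 (1.30), Sec11a (1.56), Serinc3 (1.14) and Cd81 (1.51) lower first. Without the 6 female mutants of 4 months the difference of Kcns3 alone among the 7 was called, and the 4-month effects of Satb1, Bsn, Serinc3 and Cd81 were -0.03, -0.06, 0.05 and 0.23.

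Single libraries stood far from the others of their group for some values, which chance gives in about 1 of 20 groups. The wt library C250 of 8 months, from set 3, had the lowest Th level of its group (1004 CPM), the highest Ccnd2 level (27.3 CPM) and the highest summed HOX level (52.3 CPM). The mutant library D176 of 8 months had the lowest Ccnd2 level of its group (30.6 CPM) and the highest astrocyte marker sum (2782 CPM). The highest Paip1 level among mutants of 8 months was 154 CPM, in library C42.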

How the results depend on the processing

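The count of genes with a called difference (580 higher and 362 lower) was 261 at an adjusted p under 0.01, 1371 with DESeq2 and 1367 with limma-voom. It was 615 without the set term, 1530 in set 1 alone, 3 in set 2 alone, 154 without the sex term, 308 with sex within month, 97 with the length index as a term, 89 without the 4 set 1 mutants of 4 months and 17 without all 6 female mutants of that age. With 1 library left out it ran from 608 to 1309; it fell to 608 without C47 and 613 without C51, both wt at 8 months, and to 617 without D237, a mutant at 4 months. Late-only genes (2.39% of those tested) numbered 115 at an adjusted p under 0.01, 592 with DESeq2, 786 with limma-voom, 109 without the sex term, 153 with sex within month, 203 in set 1 alone, 3 in set 2 alone, 83 without the 4 set 1 mutants, 15 without the 6 female mutants and 91 with the length term, and 244 to 421 with 1 library left out (244 without C51). Turning genes (73) numbered 6 at an adjusted p under 0.01, 42 without the filter on low counts, 155 with DESeq2, 10 without the sex term, 10 without the set term, 30 with the set label shared over months, 242 in set 1 alone, 0 in set 2 alone, 0 without the 4 set 1 mutants, 33 without the 2 shallowest libraries, 1 without the 6 female mutants, 3 with the length term, 47 with sex within month, and 13 to 297 with 1 library left out. Early and stable genes (6) numbered 2 in set 1 alone, 0 in set 2 alone, 3 without the 4 set 1 mutants, 0 without the 6 female mutants, 3 with the length term, and 3 to 9 with 1 library left out. Growing genes (4) numbered 0 at an adjusted p under 0.01, 8 with DESeq2, 10 with limma-voom, 1 in set 1 alone, 0 in set 2 alone, 1 without the 4 set 1 mutants, 0 without the 6 female mutants, 2 with the length term, and 2 to 7 with 1 library left out. Fits on fewer libraries also have fewer degrees of freedom; the cause of the other shifts was not tested.

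For the 63 genes described, 138 values were followed: each difference, and each effect called at 4 or 8 months. Without the 6 female mutants of 4 months 83 kept direction and call, 46 lost the call and 9 turned sign: the 4-month effects of Fdps (0.01), Satb1 (-0.03), Bsn (-0.06), Serinc3 (0.05) and Cd81 (0.23), the called differences of Cox4i1 (-0.20) and Hspa5 (-0.14), and the uncalled differences of Sfmbt2 (0.13) and Kcp (0.66). In set 1 alone 6 turned, the 4-month effect of Gad1 (-0.34) and the uncalled differences of Hoxa9 (-1.40), Nr4a1 (-0.36), Fdps (0.43), Shox2 (0.44) and Eed (0.28). In that set genotype and sex coincided at 4 months. All other turns were of uncalled differences: Onecut2 in set 2 alone (-0.56) and without the 4 set 1 mutants (-0.13); Sfmbt2 without the sex term (0.03), with the set label shared over months (0.07), in set 2 alone (0.48) and with the length term (0.23); Kcp without the 2 shallowest libraries (0.01) and with the length term (0.56); Nr4a1 with limma-voom (-0.01) and without the set term (-0.08); Fdps without the set term (0.16) and with the shared set label (0.09); and Eed with limma-voom (0.17). Without the 4 set 1 mutants 105 values kept direction and call and 32 lost the call. All 138 kept both without the 2 set 3 wt libraries of 8 months. The median difference over all genes moved by less than 0.1 on the log2 scale in every setting. No paired analysis was possible because the animal numbers of the labels differ between groups. Depth limits the 4-month values of low genes such as Hoxd11, which had 5 mutant counts there.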
